A study of Mus musculus with 62 samples.

Results

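The 36 immediate-early and dissociation response genes described here were chosen by name, as genes known to switch on within minutes of a stimulus or of tissue handling, and were read as the rows of the deposited count matrix that carry those symbols. The matrix held 53801 gene identifiers in all, and all 36 members were among the 19865 genes that passed the filter on low counts. By role they comprised 7 genes of the AP-1 family, 3 Egr genes, 3 Nr4a genes, 5 Klf and Myc genes, 4 Dusp genes, 9 other early genes and 5 heat shock genes.

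The libraries were made from CD11b+ cells of mice, CD11b being the surface integrin by which microglia and other myeloid cells are isolated. WT mice were wild type, NLRP3 mice were NLRP3-/- and so lacked the sensor of the NLRP3 inflammasome, APPPS1 mice carried the APP/PS1 transgenes, which model amyloid deposition in Alzheimer's disease, and APPPS1_NLRP3 mice were APP/PS1 transgenic and NLRP3-/-. Each genotype was sampled at 4, 6 and 12 months (4m, 6m, 12m). A further 12-month set of each genotype carries the term Mxo4 in its title, which the labels do not spell out. These sets are called tagged here and the other 12-month sets untagged. The 16 groups held 3 to 5 libraries each, 62 in all. The labels give no promoter or line for the transgenes and do not say whether libraries came from separate animals, so the p-values describe the spread among these libraries only, which may be technical.

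Immediate-early genes are transcribed by factors already present in the cell, without new protein synthesis, when kinase cascades, calcium or stress signals reach serum response factor and CREB at their promoters. The first products are transcription factors of the AP-1, Egr, Nr4a and Klf families, and with them come the inhibitors that end the response, such as the Dusp phosphatases, which inactivate MAP kinases, and Zfp36, which destabilises short-lived mRNAs. Heat shock genes respond to unfolded protein through a separate factor, HSF1. In microglia both programs are known to be raised by enzymatic or mechanical dissociation of the brain.

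Libraries held a median of 18392142 counts, with 27604393 in the deepest. Only 659 counts were present in APPPS1_6m replicate 21, so it stayed in the fit but levels are given for the 61 other libraries. The next lowest totals were 1394435 counts in NLRP3_12m replicate 45 and 6187249 in APPPS1_12m replicate 41. Nlrp3 itself measured 60.1 to 234 CPM (counts scaled to a library total of 1000000) in the 30 libraries of groups with the gene and 0 to 2.16 CPM in the 31 of groups without it. The library labelled APPPS1_12m_Mxo4 replicate 56 had Cst7, a gene that rises with the transgenes, at 10.3 CPM, against 1450 to 2170 CPM in the other 3 of its group and 11.3 to 32.7 CPM in WT_12m_Mxo4. It was kept, and results that it moves are given without it. The summed level of 11 microglia markers was 32300 to 50000 CPM, against 3.43 to 583 CPM for 8 neuronal markers. Some other lists reached higher sums, with 101 to 5430 CPM for choroid plexus and 12.8 to 2190 CPM for neutrophils. Markers of border-associated macrophages summed to 141 to 1180 CPM and those of oligodendrocytes to 149 to 1050 CPM. By their Xist and Y-linked reads, 42 libraries came from females and 19 from males. The untagged 12-month groups were all female in WT and APPPS1 and all male in both groups without Nlrp3, whereas the tagged groups were mixed.

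Promoter sequences are shown for 4 members because they place the best known early response motifs beside genes that did and did not move together below. RefSeq (GRCm38.p6) gave a promoter for 28 of the 36 members, and the 250 bases before the annotated start are printed 5′ to 3′ in the direction of transcription, with the motif in capitals. Fos (chr12:85473640-85473889, + strand) holds no match to any motif searched in this window, Dusp1 (chr17:26508473-26508722, - strand) holds the CREB site TGACGTCA starting at position -143, Zfp36 (chr7:28379229-28379478, - strand) holds a CArG box, the site of serum response factor, at -58, and Egr2 (chr10:67537619-67537868, + strand) holds a CArG box at -72. Egr2 has several annotated starts in the table, of which 1 is printed.
Fos: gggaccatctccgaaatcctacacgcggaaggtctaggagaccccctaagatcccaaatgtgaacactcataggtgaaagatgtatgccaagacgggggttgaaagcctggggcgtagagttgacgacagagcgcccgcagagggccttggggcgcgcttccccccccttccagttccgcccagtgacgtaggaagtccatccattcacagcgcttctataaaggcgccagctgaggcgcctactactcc
Dusp1: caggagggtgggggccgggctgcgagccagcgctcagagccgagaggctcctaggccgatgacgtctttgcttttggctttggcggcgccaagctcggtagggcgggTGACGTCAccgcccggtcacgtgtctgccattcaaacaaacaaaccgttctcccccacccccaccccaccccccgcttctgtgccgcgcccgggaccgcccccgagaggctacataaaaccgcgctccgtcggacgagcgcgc
Zfp36: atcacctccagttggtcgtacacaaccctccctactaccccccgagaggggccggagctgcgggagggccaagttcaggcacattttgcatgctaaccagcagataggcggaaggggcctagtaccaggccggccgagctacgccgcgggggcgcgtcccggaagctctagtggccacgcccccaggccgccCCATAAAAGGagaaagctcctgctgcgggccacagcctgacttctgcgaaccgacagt
Egr2: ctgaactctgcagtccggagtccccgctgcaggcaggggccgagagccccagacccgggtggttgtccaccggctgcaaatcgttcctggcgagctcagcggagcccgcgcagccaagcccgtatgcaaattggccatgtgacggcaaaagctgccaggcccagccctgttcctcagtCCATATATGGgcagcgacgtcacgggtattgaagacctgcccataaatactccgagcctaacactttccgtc
Both strands were searched, from 250 bases before to 50 after each start. A CArG box lay in the promoters of 3 of the 28 members searched (Egr2, Dusp5 and Zfp36), against 1.64% of 32544 promoters of the same length. A member was counted if any of its promoters matched, while the shares are per promoter, with several promoters for some genes. The units therefore differ. Egr1 was not among those searched. The CREB site lay in 3 members (Maff, Dusp1 and Btg2), against 1.8% of all promoters. The AP-1 site TGANTCA, present in 7.79% of all promoters, and the heat shock element, present in 0.608%, matched in none of the searched members' windows. A match describes letters in the window and nothing about a factor's binding. Only the exact motifs were searched, so a lack of match, as for Fos, says nothing about sites farther upstream or with other letters.

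Levels spanned a wide range between the members and between libraries. Per kilobase of exon, Fos, which pairs with Jun in the AP-1 factor, was the highest member, with a median over the 61 libraries of 1093 CPM per kb (187.4 to 3356). It was followed by Jun with a median of 671.8 CPM per kb, and by the chaperone genes Hspa1b with 618.3 and Hspa8 with 611.8. Dusp1 (592.0 CPM per kb) and Zfp36 (587.8 CPM per kb) came next. The lowest medians were those of the orphan nuclear receptor genes Nr4a2 (1.703 CPM per kb) and Nr4a3 (1.937 CPM per kb), and of Egr3 (3.865 CPM per kb). Hspa1a and Hspa1b are near-identical neighbours on chromosome 17, and 42.2% of the 125-base windows of the Hspa1a transcript also occur in Hspa1b, so how their reads were divided is uncertain. Whether counting used strand is not given in the sources used here, so reads of an overlapping antisense gene cannot be told apart from a member's own.

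As a share of all counts, the 36 members made up 1.35% in the lowest library (APPPS1_NLRP3_12m replicate 44) and 5.35% in the highest (NLRP3_12m_Mxo4 replicate 50). Untagged and tagged 12-month libraries did not overlap in 3 genotypes: 3.05% to 3.39% against 3.97% to 4.30% in WT, 2.07% to 2.55% against 4.40% to 5.35% in NLRP3, and 1.35% to 1.89% against 3.13% to 3.56% in APPPS1_NLRP3. In APPPS1 they overlapped, at 1.91% to 2.99% untagged and 2.50% to 4.52% tagged. The mean log2 deviation of the members, which weighs each gene equally against its own mean over the 61 libraries, ranged from -0.835 in APPPS1_NLRP3_6m replicate 31 to 0.534 in NLRP3_12m_Mxo4 replicate 50. Other libraries that stood below the rest of their group were APPPS1_4m replicate 6 (-0.824), APPPS1_NLRP3_12m replicate 44 (-0.767), APPPS1_12m replicate 41 (-0.473) and APPPS1_12m_Mxo4 replicate 57 (-0.0914, against 0.312 to 0.361).

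**Figure D1:**
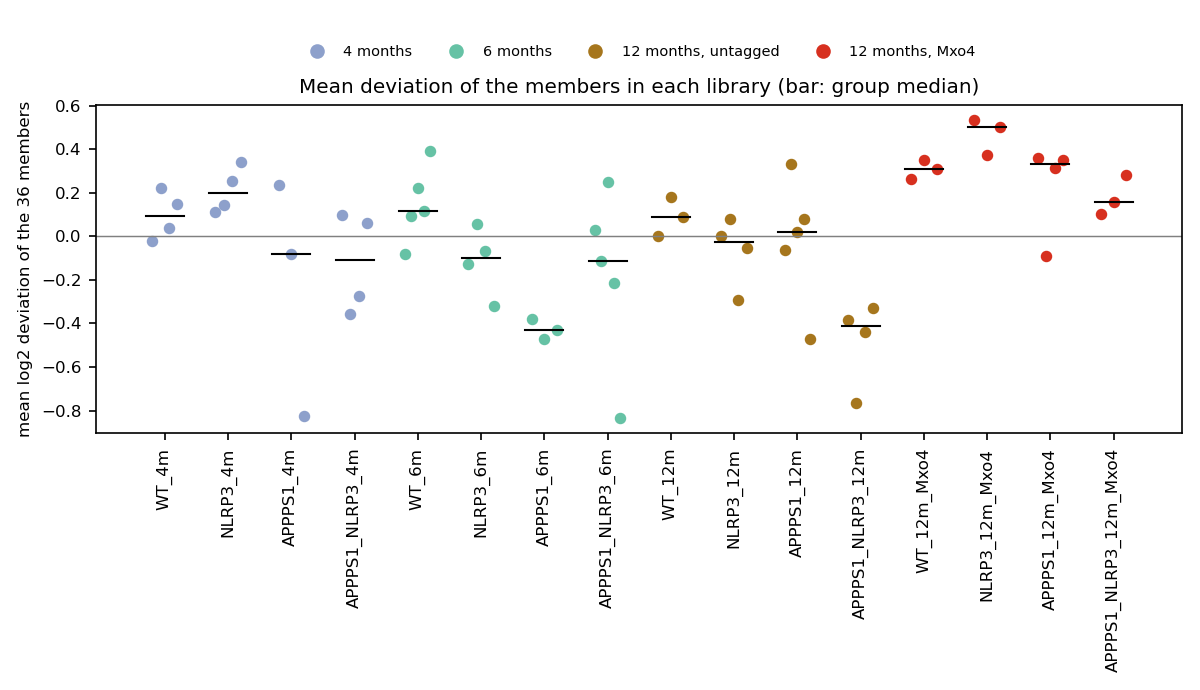
Each point is a library and shows the mean over the 36 members of log2(CPM + 1) minus the gene's mean over 61 libraries, by group along the horizontal axis, and the bar is the group's median. All 3 NLRP3_12m_Mxo4 libraries lie between 0.373 and 0.534, above the 4 NLRP3_12m libraries at -0.291 to 0.0798.

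The main comparison set tagged against untagged 12-month libraries, first averaged over the 4 genotypes. Of the 36 members, 19 were higher in the tagged libraries and 2 were lower (edgeR quasi-likelihood test, p adjusted after Benjamini and Hochberg across every gene tested, called under 0.05). Over all 19865 genes, 7.59% were called higher and 11.5% lower. The members' median difference was 0.34 on the log2 scale, against -0.02 over all genes. The 19 covered the AP-1, Egr, Nr4a, Klf, Dusp and other early genes, and none of the 5 heat shock genes was among them. In bulk RNA, fewer cells that express a gene and less RNA per cell cannot be told apart.

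Among the AP-1 genes, 5 of 7 rose. Fos (ENSMUSG00000021250, chr12:85473890-85477273, + strand) measured 3227, 2610 and 2250 CPM in the untagged WT libraries and 4146, 5438 and 5465 CPM in the tagged ones. In NLRP3 the untagged libraries held 2185, 1888, 1890 and 2116 CPM of Fos, and the tagged ones 7894, 6374 and 6373 CPM. Every tagged library of these 2 genotypes thus lay above every untagged one. In APPPS1, Fos was 1558, 2246, 2281, 2024 and 1335 CPM untagged and 6746, 2036, 3883 and 4631 CPM tagged, the value of 2036 CPM in replicate 57 falling within the untagged range. In APPPS1_NLRP3 it was 1102, 1077, 1213 and 1380 CPM untagged and 4889, 3483 and 3447 CPM tagged, with no overlap. The mean difference for Fos was 1.43 ± 0.20 (log2 ± standard error, edgeR adjusted p = 1.01e-06), the largest of all 36 members.

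Fosb, a second Fos family partner of Jun, rose by 1.33 ± 0.15 (edgeR adjusted p = 1.26e-08), and its tagged libraries lay above the untagged ones in all 4 genotypes, for example 194, 211 and 176 CPM against 49.6, 56.03, 60.8 and 130 CPM in APPPS1_NLRP3. Jun (chr4:95049034-95052222, - strand), the AP-1 partner of Fos, measured 2151, 2142 and 2395 CPM in untagged WT libraries and 3329, 3853 and 3789 CPM in tagged ones. In untagged NLRP3 libraries Jun held 1543, 1775, 1442 and 1551 CPM, against 4423, 3588 and 3707 CPM with the tag. As for Fosb, no tagged Jun value in any genotype fell within the untagged range. Its mean difference was 1.11 ± 0.14 (edgeR adjusted p = 2.13e-07). Junb and Jund, which form weaker or restraining AP-1 dimers, rose by 0.66 and 0.58. Fosl2 (0.08) and Maff (0.31), a small Maf protein without an activation domain, did not pass the test.

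**Figure D2:**
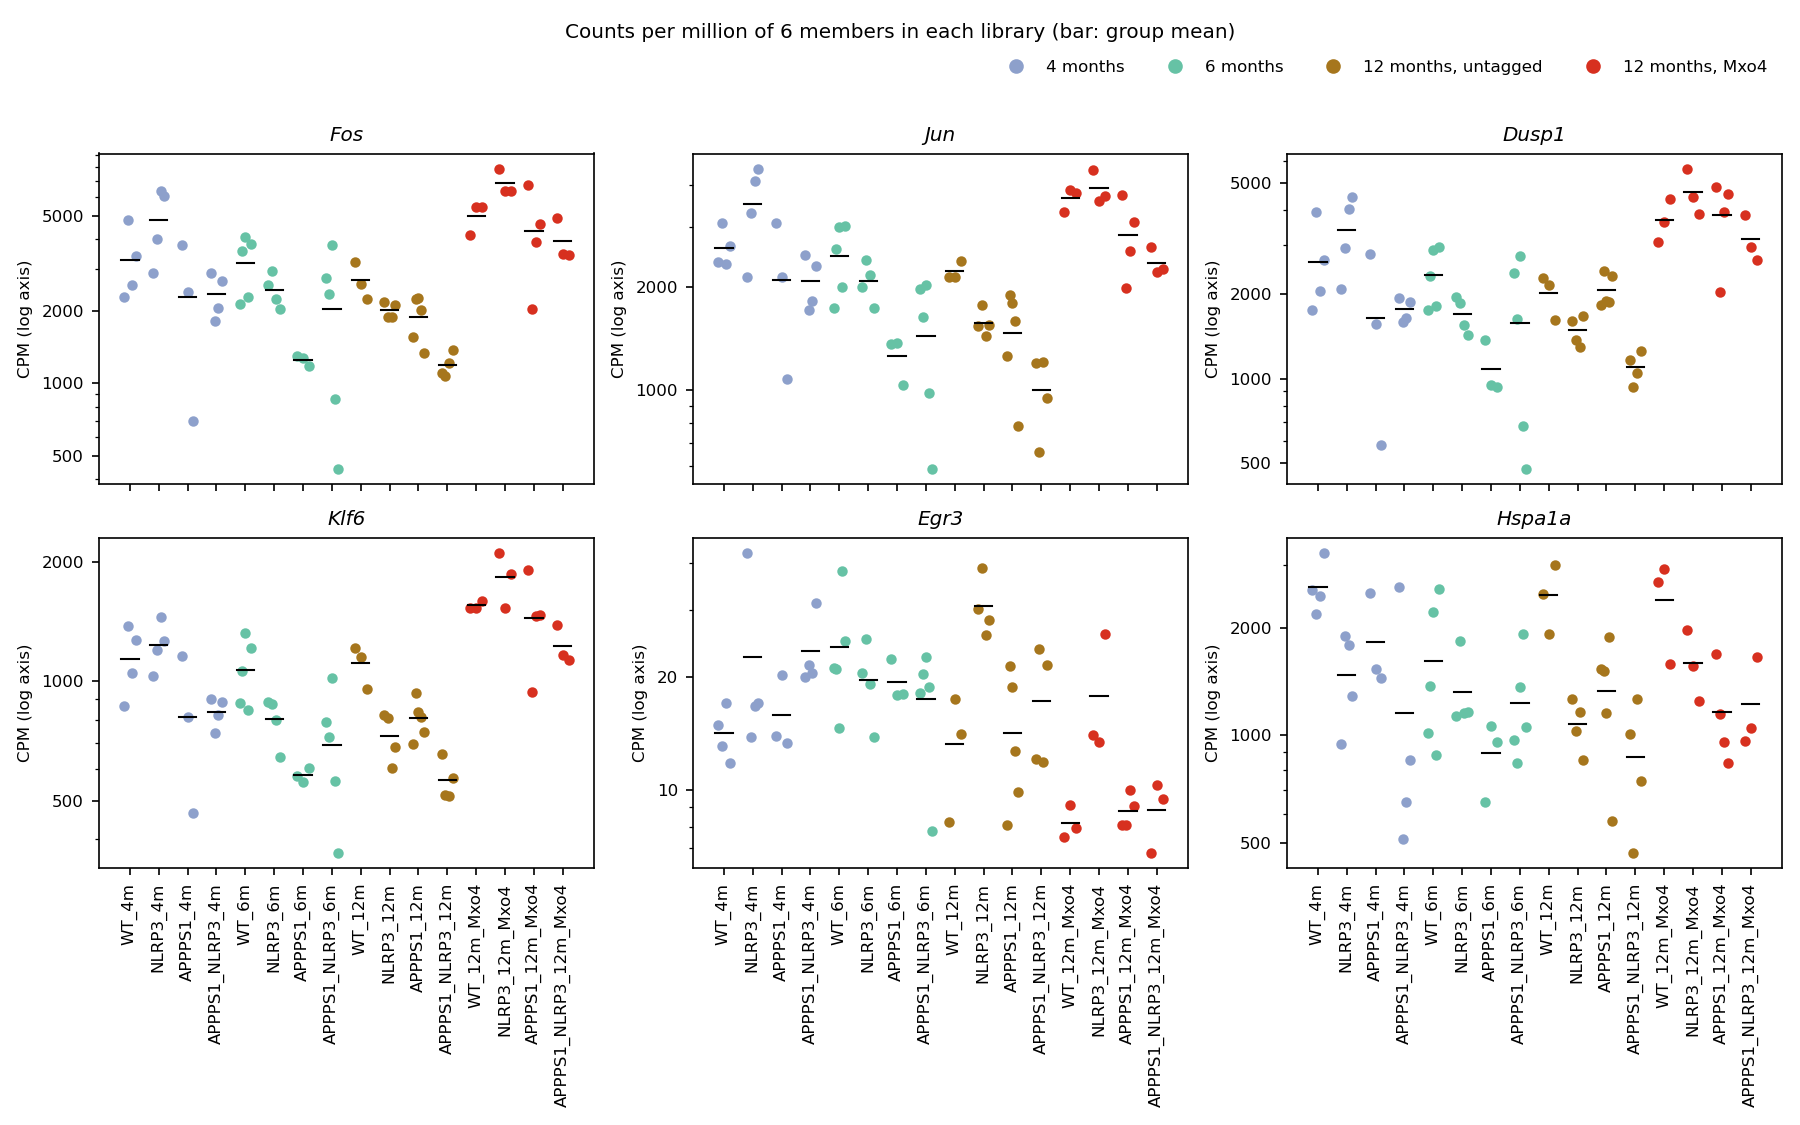
Each point is a library and gives the level in CPM (log axis) of Fos, Jun, Dusp1, Klf6, Egr3 and Hspa1a in the 16 groups, with a bar at the group mean. Fos in NLRP3_12m_Mxo4 reaches 6373 to 7894 CPM against 1888 to 2185 CPM in NLRP3_12m, while Egr3 has a lower mean with the tag in each genotype and Hspa1a overlaps between the sets.

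The 3 Egr genes, zinc finger factors induced through serum response factor, moved apart from each other. Egr1 measured 1760, 1602, 1528 and 1745 CPM in untagged NLRP3 libraries and 4249, 3156 and 4005 CPM in tagged ones, and rose by 1.07 ± 0.16 over the genotypes (edgeR adjusted p = 5.23e-06). Egr3, which calcium signalling induces in lymphocytes, fell by 0.70 ± 0.15 (edgeR adjusted p = 0.000544). Its levels were low throughout, with 12.1, 23.6, 11.9 and 21.5 CPM in untagged APPPS1_NLRP3 libraries and 6.80, 10.3 and 9.45 CPM in tagged ones. Egr2 was at 0.06 ± 0.13 (edgeR adjusted p = 0.79), and its difference had opposite signs between genotypes, at -0.76 ± 0.27 in WT and 0.72 ± 0.26 in APPPS1_NLRP3, neither of which passed the test. In WT, Egr2 was 97.3, 188 and 135 CPM untagged and 89.9, 79.4 and 80.8 CPM tagged. In APPPS1_NLRP3 it was 128, 89.1, 139 and 119 CPM untagged and 151, 161 and 217 CPM tagged. The groups did not overlap in either genotype, tagged libraries lying below in WT and above in APPPS1_NLRP3.

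The Nr4a genes, which encode ligand-independent nuclear receptors, also split. Nr4a1 rose by 0.39 ± 0.13 (edgeR adjusted p = 0.0332), a mean that joins unlike genotypes. It had 515.6, 530, 411 and 516 CPM in untagged and 738, 684 and 669 CPM in tagged NLRP3 libraries. In APPPS1_NLRP3 it had 219, 231, 352 and 326 CPM untagged and 431, 494 and 616 CPM tagged. The sets overlapped in WT (423.5, 615 and 574 CPM untagged, 425, 545 and 420 CPM tagged). They also overlapped in APPPS1 (347, 639, 544, 572 and 179 CPM untagged, 442, 288, 511.5 and 581 CPM tagged). All 3 Nr4a differences were negative in APPPS1. Nr4a2 fell by 0.52 ± 0.16 (edgeR adjusted p = 0.0158), at 6.40, 11.5, 16.8 and 9.37 CPM untagged against 3.91, 5.02 and 5.87 CPM tagged in NLRP3. Both calls were the least stable of the 21: that of Nr4a1 ended in 8 of 29 fits without 1 library (WT_12m replicates 34 and 40, NLRP3_12m replicate 47, and tagged replicates 50, 54, 59, 60 and 61), with edgeR adjusted p up to 0.0697, and Nr4a2 lost its call without WT_12m replicate 39 (edgeR adjusted p = 0.0924). Nr4a3 was at -0.07.

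Of the Klf and Myc genes, Klf2, Klf4 and Klf6, zinc finger factors tied to quiescence and to the response of myeloid cells to stimuli, all rose. Klf6 (chr13:5861482-5870394, + strand) had 825, 809, 604 and 681.5 CPM in untagged NLRP3 libraries and 2108, 1530 and 1868 CPM in tagged ones. Its mean difference of 0.97 ± 0.11 was close in size to that of Klf2 (0.98 ± 0.15) and Klf4 (1.13 ± 0.15), with edgeR adjusted p of 1.86e-08, 2.48e-06 and 5.78e-07. Klf10, a TGF-beta early gene, was at 0.27 ± 0.14 and the proliferation factor Myc at 0.28 ± 0.12, and neither passed the test.

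The inhibitors of the response rose with it only in part. Dusp1, the nuclear phosphatase of p38 and JNK, held 1167, 933, 1043 and 1259 CPM in untagged APPPS1_NLRP3 libraries and 3847, 2937 and 2654 CPM in tagged ones. Its mean difference was 1.27 ± 0.18 (edgeR adjusted p = 1.36e-06). Dusp6, the cytoplasmic phosphatase of ERK, rose by 0.58 ± 0.09 (edgeR adjusted p = 1.18e-05). Dusp2 was at -0.28 ± 0.11 and Dusp5 at -0.18 ± 0.15, and neither passed. Zfp36 (chr7:28376784-28380253, - strand) measured 1437, 1108, 1333 and 1429 CPM untagged and 3234, 2684 and 2704 CPM tagged in APPPS1_NLRP3, and rose by 0.86 ± 0.13 (edgeR adjusted p = 2.48e-06).

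Of the 9 other early genes, Zfp36 included, 7 rose and none fell. Rgs1, which damps signalling of G protein-coupled receptors, had 692, 496, 415 and 524 CPM in untagged and 2562, 1845 and 1853 CPM in tagged NLRP3 libraries. Its mean difference was 0.96 ± 0.15 (edgeR adjusted p = 5.67e-06), although in APPPS1 its libraries overlapped, with 2088, 1172, 775, 1130 and 1594 CPM untagged and 1579, 1172, 1376 and 1435 CPM tagged. Ier2 (0.70), Btg2 (0.55) and Ier5 (0.52), all early response genes of growth control, rose as well. Btg1, an antiproliferative gene, rose by 0.38 ± 0.06 with a narrow spread between libraries. Rhob, a short-lived small GTPase, rose by 0.28. Ier3 (0.21) and Gadd45b (-0.05), a stress sensor that acts on p38, did not pass.

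None of the 5 heat shock genes passed the test over the 4 genotypes, a mean that joins unlike values. By genotype, their median difference was 0.007 in WT, 0.725 in NLRP3, -0.281 in APPPS1 and 0.623 in APPPS1_NLRP3, with 0 called in each. Over the 4 genotypes their differences were 0.28 ± 0.16 for Hsp90aa1, 0.26 ± 0.19 for Hspa1a, 0.25 ± 0.11 for Dnajb1, 0.22 ± 0.12 for Hspa8 and 0.20 ± 0.20 for Hspa1b, with edgeR adjusted p from 0.0992 to 0.537. Hsp90aa1, the stress-inducible Hsp90, had 2351, 1226 and 1844 CPM in untagged WT libraries and 2080, 1924 and 1499 CPM in tagged ones. In APPPS1 it had 1954, 1394, 883, 1430 and 1082 CPM untagged and 1577, 877, 947 and 830 CPM tagged. The tagged and untagged ranges thus overlapped in both genotypes, and its difference was 0.10 in WT and -0.44 in APPPS1, against 0.75 in NLRP3 and 0.72 in APPPS1_NLRP3, none of which passed the test. Dnajb1 was 241, 169, 248 and 314 CPM untagged and 271, 279 and 356 CPM tagged in APPPS1_NLRP3, and Hspa8, the constitutive Hsp70, was 1864, 1490, 1889 and 2024 CPM untagged and 2538, 2584 and 3214 CPM tagged there. Hsp90aa1 was 1054, 668.7, 1009 and 799.5 CPM untagged and 1175, 1308 and 1869 CPM tagged in that genotype. Hspa8 and Hsp90aa1 thus had no overlap there, while the other 3 heat shock genes did.

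**Figure D3:**
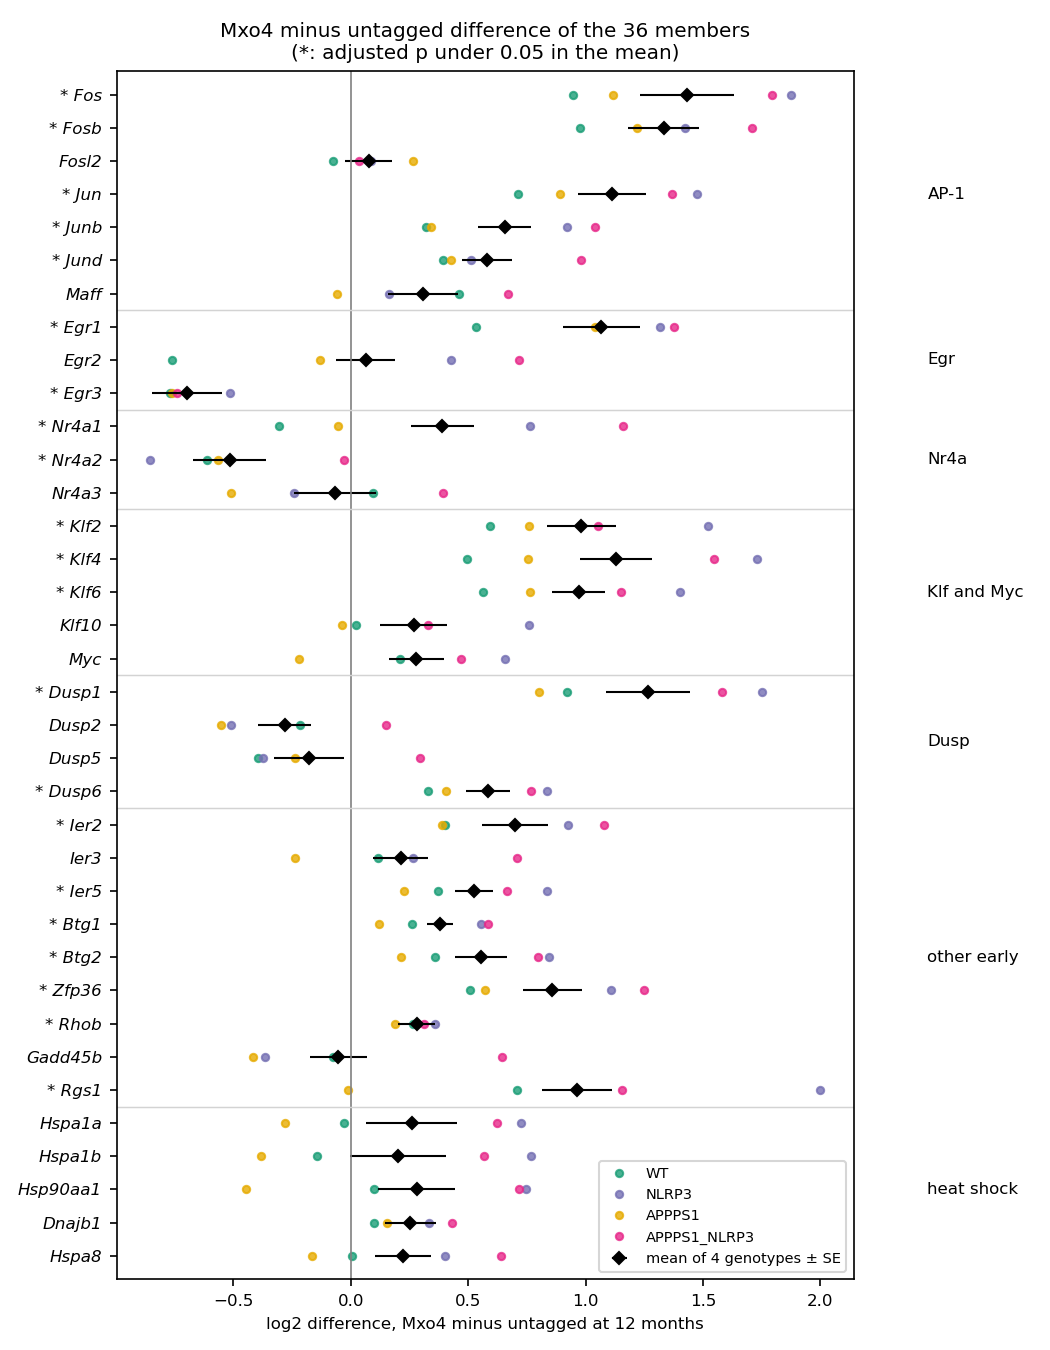
For each of the 36 members, arranged by role, dots give the log2 difference, tagged minus untagged at 12 months, in each of the 4 genotypes, and the larger marker gives the mean of the 4 with its standard error. Fos has the highest mean at 1.43 and Egr3 the lowest at -0.70, and the 5 heat shock genes lie between 0.20 and 0.28.

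Of the 21 calls, 19 were kept in each of the 29 fits that left out 1 library, and 22 members were called without APPPS1_12m_Mxo4 replicate 56. With only the libraries whose second title number is 2, where all 4 genotypes have both sets, 15 members were higher and none was lower, and replicate 56 is then the sole tagged APPPS1 library. Egr3 (-0.66, edgeR adjusted p = 0.0713) and Nr4a2 (-0.17, adjusted p = 0.724) lost their calls, as did Nr4a1, Ier2, Btg2 and Rhob. A value for second title number 1 could not be had, because APPPS1_NLRP3_12m_Mxo4 has no such library.

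Other measures moved with the tag. The summed level of 8 neuronal markers was 3.43 to 45.4 CPM (median 15.1) in the 13 tagged libraries and 12.6 to 583 CPM (median 87.8) in the 16 untagged ones, and all 8 were called lower, with a median difference of -2.64. Astrocyte markers summed to 50.5 to 201 CPM tagged and 64.7 to 1010 CPM untagged, with 3 of 6 called lower. Microglia markers summed to 32300 to 40900 CPM tagged and 34000 to 44500 CPM untagged, with 2 of 11 called lower. No gene of these lists was at 0 in all libraries. The mitochondrial share of counts was 0.515% to 0.676% in tagged and 0.702% to 2.97% in untagged NLRP3 libraries, and 0.597% to 0.693% against 0.750% to 2.51% in APPPS1_NLRP3. It overlapped between the sets in WT (0.554% to 0.855% tagged, 0.468% to 0.613% untagged) and APPPS1 (0.556% to 1.05% tagged, 0.572% to 1.33% untagged). Neuronal sums overlapped between the sets in APPPS1 only (5.22 to 45.4 CPM tagged, 12.6 to 68.9 CPM untagged). The part of these measures in the members' differences was not tested.

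Within single genotypes the number of members called higher was 0 in WT (background 0.0654%), 16 in NLRP3 (2.11%), 5 in APPPS1 (2.76%) and 16 in APPPS1_NLRP3 (0.554%), and no member was called lower (background 0.161%, 4.74%, 3.73% and 0.624%). The members' median differences were 0.26 in WT, 0.76 in NLRP3, 0.14 in APPPS1 and 0.71 in APPPS1_NLRP3. In WT, 8 members were higher and 2 lower at an unadjusted p under 0.05 (3.93% and 6.61% of all genes), DESeq2 also called 0, and only 45 of all genes were called in either direction. There, 14 members had all 3 tagged libraries above all 3 untagged ones and 1 had them below, against 5.71% and 10.3% of all genes. In NLRP3 the corresponding counts were 19 and 2 (background 4.13% and 9.39%), in APPPS1 3 and 0 (1.98% and 1.31%), and in APPPS1_NLRP3 22 and 1 (3.19% and 10.8%).

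In NLRP3 the largest rises were those of Rgs1 (2.00 ± 0.31), Fos (1.88 ± 0.41), Dusp1 (1.75 ± 0.37) and Klf4 (1.73 ± 0.32). Fos, Fosb, Jun, Klf2, Klf4, Klf6, Dusp1, Ier5, Btg1 and Rgs1 kept their calls in each of the 7 fits without 1 library, and 10 members were called without NLRP3_12m replicate 47. In APPPS1_NLRP3 the largest were Fos (1.79 ± 0.41), Fosb (1.71 ± 0.31), Dusp1 (1.58 ± 0.37) and Klf4 (1.55 ± 0.31). Only Fosb and Btg1 kept their calls in each of its leave-outs, and the count fell to 2 without APPPS1_NLRP3_12m replicate 44, 5 without APPPS1_NLRP3_12m_Mxo4 replicate 52, 6 without 53 and 9 without 54. In APPPS1 the 5 calls were Fosb (1.22 ± 0.26), Fos (1.12 ± 0.35), Egr1 (1.04 ± 0.29), Jun (0.89 ± 0.25) and Klf6 (0.77 ± 0.20). There only Fosb kept its call throughout, and the count was 1 without APPPS1_12m replicate 35 or APPPS1_12m_Mxo4 replicate 56, 2 without APPPS1_12m replicate 41 or APPPS1_12m_Mxo4 replicate 59, and 8 without APPPS1_12m replicate 36. Within second title number 1 the count was 0 in APPPS1, and within number 2 it was 10 in APPPS1_NLRP3, all higher. Number 2 leaves replicate 56, with Cst7 at the WT level, as the sole tagged APPPS1 library, so no count is given there. In NLRP3 no call held within either number, each of which leaves 1 library in 1 of the sets. With a term for sex, no member was called in APPPS1, where untagged libraries were all female and 3 of the 4 tagged ones male.

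Whether the tag difference itself differed between genotypes was tested by interaction. Between genotypes with and without the transgenes, 0 members were called by edgeR and 0 of all genes (background 0%), 1 member being past an unadjusted p of 0.05, Rgs1 at -0.78 ± 0.30 (unadjusted p = 0.0116). That is no more than among all genes, of which 4.37% were lower and 3.23% higher at that p. Between genotypes without and with Nlrp3, a test added after the data were seen, 1 member was called, Nr4a1 at 1.14 ± 0.27 (edgeR adjusted p = 0.0364), against a background of 0.352% higher and 0.0503% lower. At an unadjusted p under 0.05, 21 members were larger without Nlrp3 and none was smaller, against 5.98% and 6.36% of all genes, and the median over the members was 0.56. The call of Nr4a1 was lost in 16 of the 29 fits without 1 library (edgeR adjusted p = 0.051 to 0.0754), and was lost with a term for sex. In the untagged 12-month groups Nlrp3 status and sex cannot be told apart.

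Differences between APPPS1 and WT were next followed over the ages. At 4 months no member was called (background 0.0252% higher and 0% lower), 3 members being lower and none higher at an unadjusted p under 0.05 (1.03% and 1.57% of all genes). Without Nlrp3 no member was called at 4 months either (background 0.0101% and 0%), although 18 members were lower at an unadjusted p under 0.05 and 1 was higher, against 2.39% and 2.15% of all genes. The smallest of those p was that of Jund (-0.75 ± 0.20, unadjusted p = 0.000518, edgeR adjusted p = 0.497). Fos at 4 months was 699, 2418 and 3788 CPM in APPPS1, the lowest in replicate 6, and 2299, 2584, 3391 and 4829 CPM in WT, so the groups overlapped. No leave-out and no alternative gave a call in either comparison.

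At 6 months 11 members were lower in APPPS1 than in WT and none was higher, against 0.987% and 2.08% of all genes. Fos was 2155, 3582, 4071, 2285 and 3805 CPM in WT and 1302, 1272 and 1187 CPM in APPPS1 (-1.37 ± 0.39, edgeR adjusted p = 0.0363). Klf2 was 557, 723, 852, 568.2 and 972 CPM in WT and 320, 298 and 296 CPM in APPPS1 (-1.24 ± 0.29, edgeR adjusted p = 0.00769). For these and the other 9, all 3 APPPS1 libraries lay below all 5 WT libraries. Rhob was 689, 660, 733, 739 and 867 CPM in WT and 478.5, 472 and 359 CPM in APPPS1 (-0.71 ± 0.16, edgeR adjusted p = 0.00376). The other calls were Fosb (-1.37), Klf4 (-1.06), Jun (-0.998), Jund (-0.89), Zfp36 (-0.88), Klf6 (-0.87), Dnajb1 (-0.84), the co-chaperone of Hsp70, and Ier5 (-0.58). In all, 19 members had no overlap between the groups with APPPS1 lower and 0 with APPPS1 higher, against 8.94% and 6.71% of all genes.

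These 6-month calls rested on few libraries. Klf2 alone kept its call in each leave-out, and the count fell to 2 without APPPS1_6m replicate 24, 3 without 23, 5 without 22 or WT_6m replicate 20, 6 without WT_6m replicate 17 and 7 without 18. With the first title number as a term the count was 2, and within either second title number no member was called. Summed neuronal markers were 144 to 288 CPM in APPPS1 and 34.5 to 122 CPM in WT at this age, and the mitochondrial share was 1.08% to 1.75% against 0.495% to 1.23%. Oligodendrocyte markers summed to 257 to 497 CPM in APPPS1 and 160 to 266 CPM in WT. Sums that were lower in APPPS1, with overlap, were those of endothelium (195 to 373 CPM against 312 to 822 CPM) and choroid plexus (468 to 1400 CPM against 739 to 2560 CPM). Their part in the difference was not tested.

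In mice without Nlrp3, none of those 11 members was called at 6 months. APPPS1_NLRP3 was higher than NLRP3 in 5 members and lower in none (background 6.19% and 1.96%). Maff measured 5.28, 5.61, 5.60 and 5.50 CPM in NLRP3 and 16.9, 9.65, 13.6, 22.8 and 15.8 CPM in APPPS1_NLRP3 (1.71 ± 0.28, edgeR adjusted p = 1.57e-05). Gadd45b was 35.2, 33.1, 43.9 and 38.4 CPM in NLRP3 and 63.1, 64.2, 74.0, 114 and 83.7 CPM in APPPS1_NLRP3 (1.28 ± 0.22). For both genes every transgenic library lay above every NLRP3 library. Dusp2, a nuclear phosphatase of immune cells, rose by 1.24, Ier3, a survival gene induced through NF-kB, by 0.91 and Nr4a3 by 1.02, and all but Nr4a3 kept their calls in each leave-out. Fos overlapped, at 2570, 2944, 2258 and 2054 CPM against 2761, 2370, 3774, 859 and 441 CPM, the last 2 values coming from replicates 30 and 31. The difference between the transgene effects without and with Nlrp3 at 6 months, also tested after the data were seen, was positive for all 36 members with a median of 0.77. None was called (background 0.0151% higher and 0.00503% lower, edgeR), 21 being higher and none lower at an unadjusted p under 0.05 (4.24% and 3.25% of all genes), with Btg1 (0.55 ± 0.15) and Fosb (1.45 ± 0.40) at the smallest adjusted p of 0.183 and 0.216.

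At 12 months untagged, 5 members were higher and 1 lower in APPPS1 than in WT, against 11.1% and 6.99% of all genes, so the members were called about as often as other genes. Maff was 5.90, 10.6 and 6.91 CPM in WT and 24.6, 39.2, 18.3, 25.6 and 19.9 CPM in APPPS1 (1.88 ± 0.31, edgeR adjusted p = 7.09e-06). Gadd45b was 34.9, 75.6 and 56.1 CPM in WT and 148, 115, 80.9, 104 and 88.7 CPM in APPPS1 (1.17 ± 0.25). Ier3 was 127, 172 and 135 CPM in WT and 261, 382, 207, 232 and 240 CPM in APPPS1 (1.08 ± 0.24). These 3 genes had no overlap between the groups and kept their calls in each leave-out. Nr4a3 (1.16), Dusp2 (0.64) and the lower Dnajb1 (-0.61) were called as well, but the count fell to 3 without WT_12m replicate 40 or APPPS1_12m replicate 36. Fos did not pass the test here, at 1335 to 2281 CPM in APPPS1 and 2250 to 3227 CPM in WT.

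Among tagged libraries, APPPS1 was higher than WT in Maff (1.36 ± 0.31, edgeR adjusted p = 0.00323), Egr2 (0.88 ± 0.26) and Gadd45b (0.83 ± 0.25), and lower in no member, with a background of 3.44% and 1.67%. Maff was 9.93, 9.34 and 13.97 CPM in tagged WT and 10.9, 23.4, 36.96 and 35.5 CPM in tagged APPPS1 libraries, replicate 56 lying within the WT range. The count was 1 without any of WT_12m_Mxo4 replicates 60, 61 and 62 or APPPS1_12m_Mxo4 replicates 58 and 59, and 6 without replicate 56, of which 4 were higher and 2 lower. Only Maff kept its call throughout. Without Nlrp3, tagged APPPS1_NLRP3 was called higher than tagged NLRP3 in Gadd45b alone (0.89 ± 0.27, edgeR adjusted p = 0.0349), with 73.7, 91.5 and 93.8 CPM against 46.9, 44.1 and 61.8 CPM (background 3.56% higher and 1.63% lower). No other member passed the test, and 27 of the 36 differences were negative. The median over the members was -0.28, and at an unadjusted p under 0.05 there were 5 higher and 8 lower (8.68% and 8.40% of all genes). All 3 tagged APPPS1_NLRP3 libraries lay below all 3 tagged NLRP3 libraries in 22 members and above them in 3, against 21.8% and 9.49% of all genes. The call of Gadd45b ended without NLRP3_12m_Mxo4 replicate 50 or 51 or APPPS1_NLRP3_12m_Mxo4 replicate 53 or 54, and 2 members were called without NLRP3_12m_Mxo4 replicate 55 or APPPS1_NLRP3_12m_Mxo4 replicate 52. Untagged, APPPS1_NLRP3 was lower than NLRP3 in Jund (-0.69 ± 0.20), Fosb (-0.92 ± 0.28) and Dnajb1 (-0.63 ± 0.21), with a background of 3.17% lower and 5.56% higher. None of the 3 kept its call in each leave-out: 0 members were called without NLRP3_12m replicate 42 or APPPS1_NLRP3_12m replicate 44, and 1 without NLRP3_12m replicate 45 or APPPS1_NLRP3_12m replicate 46. The difference between the transgene effects without and with Nlrp3 gave 0 called members with edgeR at 4 months, 12 months and in the tagged sets (background 0% to 0.00503%). At an unadjusted p under 0.05 it gave 1 higher and 0 lower at 4 months (0.810% and 1.01% of all genes), and 0 higher and 1 lower in the tagged sets (1.97% and 2.14%). At 12 months it gave 0 higher and 9 lower (3.48% and 6.56% of all genes), DESeq2 called 1 member, and edgeR called 2 without APPPS1_12m replicate 37. At 12 months Gadd45b (-1.28 ± 0.34, edgeR adjusted p = 0.13) and Maff (-1.45 ± 0.41, edgeR adjusted p = 0.158) came nearest.

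**Figure D4:**
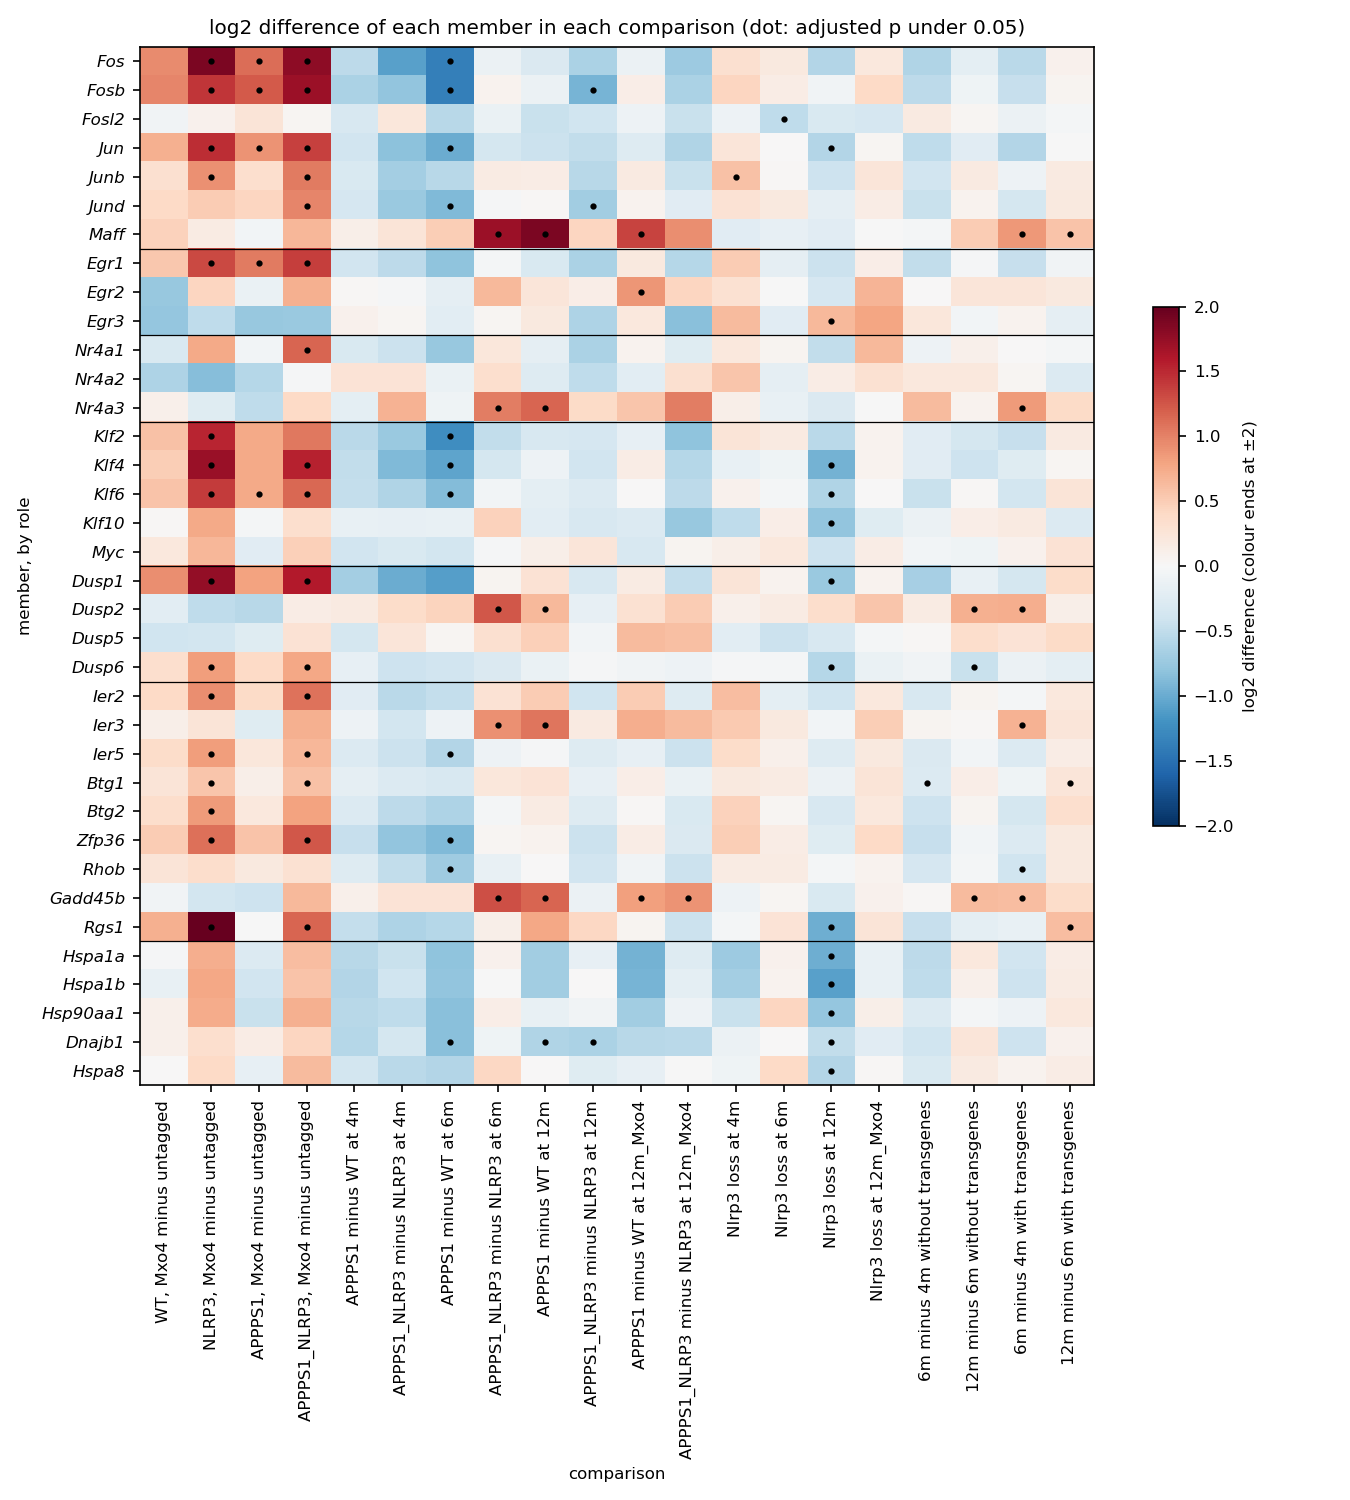
Colour gives the log2 difference of each of the 36 members (rows, by role) in 20 comparisons (columns), and a dot marks an adjusted p under 0.05. Dots lie on 16 members each in the tag comparisons of NLRP3 and APPPS1_NLRP3 and on 11 in APPPS1 minus WT at 6 months. Of the 6 transgene comparisons from 6 months on, Gadd45b carries a dot in 4 and Maff in 3.

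Groups without Nlrp3 were compared with groups with it, averaged over transgene status. At 12 months untagged, 12 members were lower without Nlrp3 and 1 was higher, against 5.78% and 5.32% of all genes. All 5 heat shock genes were among the 12. In no other comparison was more than 1 of them called. Hspa1b held 3706, 2547 and 4567 CPM in WT and 1667, 1178, 1386 and 1152 CPM in NLRP3. In the transgenic groups it held 2278, 2036, 1516, 2927 and 859 CPM with Nlrp3 and 1408, 683, 1681 and 1189 CPM without. WT and NLRP3 were separate, and the transgenic groups overlapped. Its difference was -1.08 ± 0.28 (edgeR adjusted p = 0.00754), beside -0.97 for Hspa1a, -0.78 for Hsp90aa1, -0.58 for Hspa8 and -0.49 for Dnajb1. The other members called lower were Rgs1 (-0.97 ± 0.20, edgeR adjusted p = 0.00113), Klf4 (-0.95), Klf10 (-0.79), Dusp1 (-0.74), Klf6 (-0.60), Jun (-0.59) and Dusp6 (-0.57), and Egr3 was higher (0.65 ± 0.20).

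These are the groups in which Nlrp3 status and sex cannot be told apart. With sex as a term, estimated from the other groups, 7 members were called, namely Klf4, Klf6, Dusp6, Hspa1a, Hspa1b, Hspa8 and Dnajb1. The count was 8 without WT_12m replicate 40 and 1 within either second title number (Hspa1b in number 1, Rgs1 in number 2). Of the 8 neuronal markers, 6 were called higher without Nlrp3 at 12 months, with sums of 75.7 to 583 CPM in NLRP3 against 29.1 to 184 CPM in WT. The mitochondrial share was 0.702% to 2.97% in NLRP3 and 0.468% to 0.613% in WT, and summed endothelial markers were 71.0 to 167 CPM against 227 to 373 CPM. With the transgenes the mitochondrial share was 0.750% to 2.51% without Nlrp3 and 0.572% to 1.33% with it, and the endothelial sums were 77.0 to 134 CPM against 153 to 267 CPM. The part of these in the differences was not tested. In the tagged sets, where sex was mixed, no member was called for Nlrp3 status by edgeR and 1 was called by DESeq2 (background 0.317% and 0.378%), 7 being higher and 1 lower at an unadjusted p under 0.05 (3.26% and 4.56% of all genes). This comparison and the tag comparison in NLRP3 share libraries, as do the untagged Nlrp3 comparison and the tag comparison.

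At the earlier ages little was called for Nlrp3 status. Junb was higher without Nlrp3 at 4 months (0.58 ± 0.16, edgeR adjusted p = 0.0364, background 0.740% higher and 0.816% lower), and Fosl2 was lower at 6 months (-0.51 ± 0.13, edgeR adjusted p = 0.0245, background 0.554% and 0.629%). Junb lost its call without WT_4m replicate 1, 5 or 7, NLRP3_4m replicate 12 or 15, APPPS1_4m replicate 6, or APPPS1_NLRP3_4m replicate 11 or 14. Fosl2 lost its call without WT_6m replicate 19 or 20, NLRP3_6m replicate 27, 32 or 33, or APPPS1_6m replicate 22 or 24. The count was 2 or 3 at 4 months without NLRP3_4m replicate 8, APPPS1_4m replicate 2 or APPPS1_NLRP3_4m replicate 9.

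Between ages, few members were called. In mice with the transgenes, 6 months minus 4 months gave Maff (0.87 ± 0.21), Nr4a3 (0.85), Dusp2 (0.73), Ier3 (0.69) and Gadd45b (0.62) higher and Rhob (-0.39) lower, with a background of 5.28% and 3.49%. Maff, Dusp2 and Ier3 kept their calls in each leave-out, while the count ranged from 3 without APPPS1_6m replicate 24 to 13 without APPPS1_4m replicate 6, of which 4 were higher and 9 lower. From 6 to 12 months with the transgenes, Rgs1 (0.62), Maff (0.56) and Btg1 (0.24) were higher, against 6.34% of all genes higher and 6.04% lower. None of the 3 kept its call throughout: 0 members were called without APPPS1_6m replicate 22 or APPPS1_NLRP3_12m replicate 43, and 1 without APPPS1_12m replicate 35 or APPPS1_NLRP3_6m replicate 28. Without the transgenes, Btg1 (-0.27) was lower at 6 than at 4 months (background 0.599% lower and 2.42% higher). Its call was lost in 9 of 17 fits without 1 library, and 4 members were called without NLRP3_4m replicate 8. At 12 against 6 months, Dusp2 (0.72 ± 0.15) and Gadd45b (0.63) were higher and Dusp6 (-0.45) was lower (background 1.01% and 2.85%), and no member was called without WT_12m replicate 39 and 1 without NLRP3_6m replicate 27. These age comparisons share the 6-month groups.

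Over all libraries the members fell into sets that varied together within groups. After subtraction of each group's mean, log2 levels over the 61 libraries correlated with Fos at r = 0.943 for Dusp1, 0.916 for Klf2, 0.915 for Klf6, 0.913 for Zfp36, 0.895 for Jun and 0.878 for Egr1. In all, 13 members had r of at least 0.7 with Fos. Of the promoters printed above, Dusp1 and Zfp36 thus belong to the genes nearest to Fos, and Egr2 (r = 0.593) lies farther away. The 5 heat shock genes correlated among themselves at a median r of 0.779 (0.635 to 0.981, the highest between the near-identical Hspa1a and Hspa1b), and with the AP-1 genes at a median of 0.246. Gadd45b (r = -0.373), Klf10 (-0.267) and Maff (-0.113) ran against Fos, while Maff and Gadd45b correlated with each other at 0.736. Each of these coefficients is a description over 61 libraries that share preparation and depth differences. Within groups Fos also correlated with the neuronal marker sum at -0.407 and with the mitochondrial share at -0.442, and Rgs1 and Hsp90aa1 with the neuronal sum at -0.624 and -0.562. Other marker sums ran the other way for Fos, at 0.429 for choroid plexus, 0.417 for endothelium, 0.327 for neutrophils and 0.26 for astrocytes. That of border-associated macrophages was at -0.26.

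**Figure D5:**
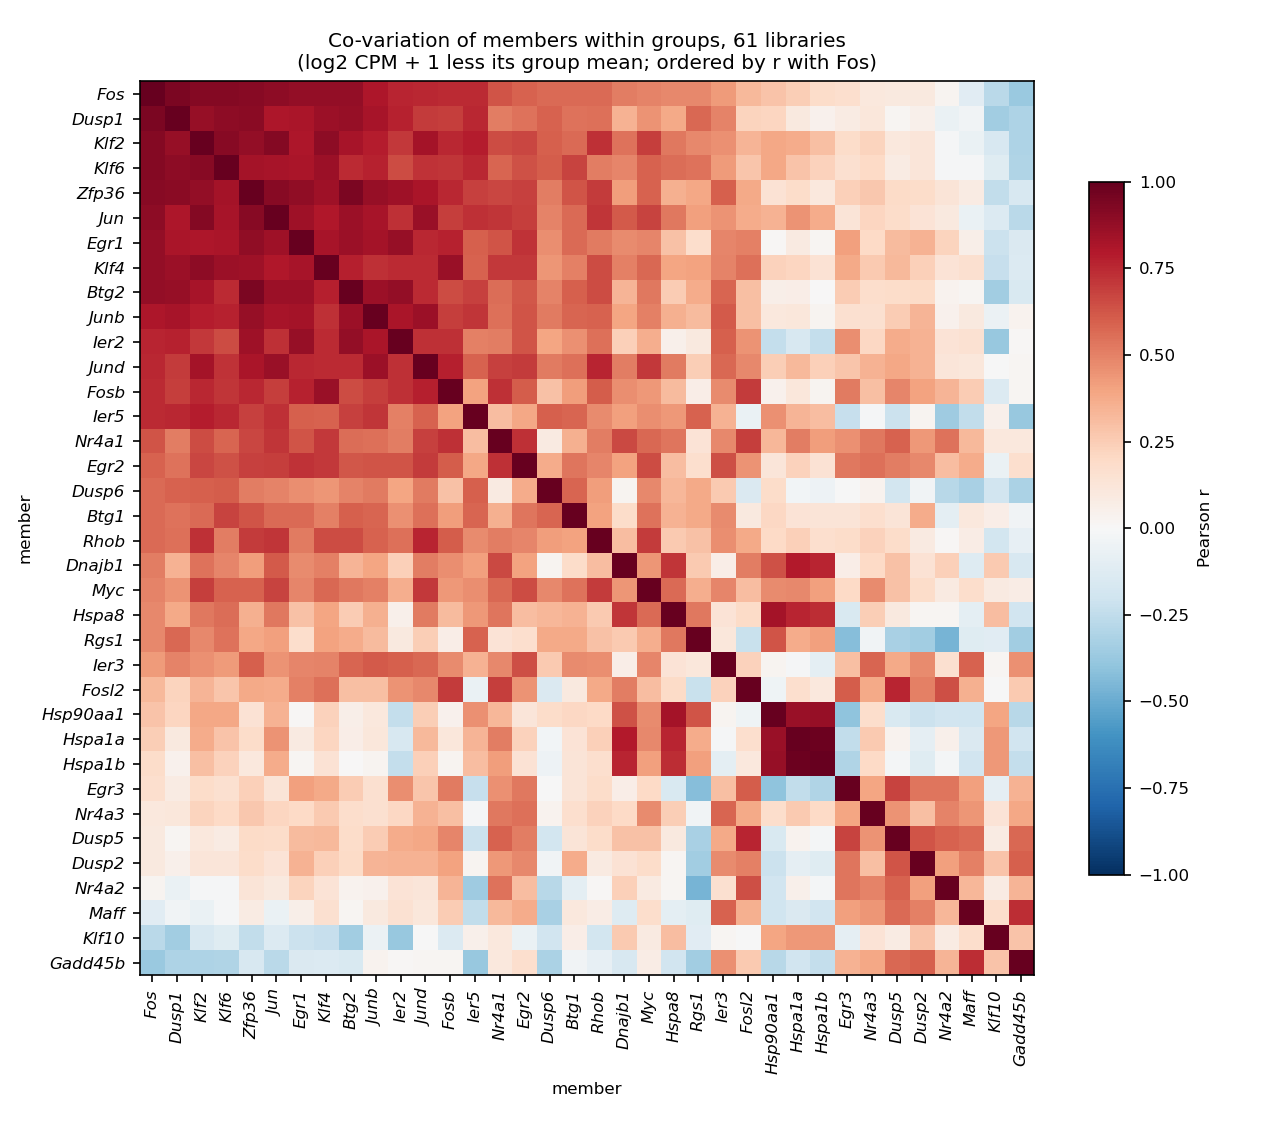
Colour gives Pearson's r between each pair of the 36 members over 61 libraries after removal of group means, with genes ordered by their r with Fos. A block of positive values runs from Fos through Dusp1, Klf2, Klf6 and Zfp36, and Maff, Klf10 and Gadd45b lie at the far end with r of -0.113 to -0.373 to Fos.

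Other genes of the same programs were measured from a list of 29 further early response genes. Averaged over genotypes, 14 of the 29 were higher with the tag and 2 were lower, with a median of 0.23 (background 7.59% and 11.5%). The circadian and cAMP-induced gene Per1 rose by 0.89 ± 0.12 (edgeR adjusted p = 6.62e-07), the stress factor Atf3 by 0.76 ± 0.13, Tnfaip3, the A20 inhibitor of NF-kB, by 0.73 ± 0.12 and Trib1 by 0.53 ± 0.09. Arc, a gene of activated neurons, was lower by far (-2.56 ± 0.47, edgeR adjusted p = 7.59e-05), as were the neuronal markers, and Crem, a CREB family gene, was at -0.56 ± 0.11. Both were named after their values were seen. Of 15 further heat shock genes, 2 rose, the endoplasmic reticulum chaperone Hspa5 (0.41 ± 0.07) and Hspb1 (0.59 ± 0.19), and Cryab, abundant in oligodendrocytes and astrocytes, fell by 0.77 ± 0.23. Their median was 0.03.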

How the data were processed

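RNA of 62 CD11b+ samples was sequenced. Per the labels' protocols, RNA came from a miRNA easy kit, libraries were made from 10 ng with SMART-Seq v4 in 2 batches and pools of 7 to 8, and a HiSeq 2500 gave paired reads of 125 bases. The deposited values are gene counts, made by the authors with Trimmomatic, TopHat and HTSeq on mm10, per the submitters' processing notes, which give no versions. No molecular identifiers are named, so PCR copies count as reads and depth covers counting error only.

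Counts were tested as deposited by quasi-likelihood with edgeR 4.0.16 under R 4.3.3 (TMM size factors, filterByExpr with minimum count 10 and minimum total 15, 19865 genes). All 62 libraries entered 1 fit whose terms were the group and the second of 3 title numbers, whose meaning the labels do not give. P-values are two-sided, Benjamini-Hochberg adjusted over all genes, and called under 0.05. Standard errors were obtained as the size of the log2 difference over the root of its F statistic. Levels are CPM, counts scaled to a library total of 1000000, shown for libraries of at least 100000 counts. Log2 levels used a pseudocount of 1. Of 27 comparisons, 5 were added after the data were seen.

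Gene symbols came from GENCODE vM21 (GRCm38) for 53620 of 53801 identifiers. The members and lists were chosen with earlier results of these data known. Up to 3 members per role with the smallest p in the mean tag comparison, among those over 5 CPM in a group, were picked for values by library. Of these, Klf2, Klf4, Dusp6, Dusp2, Btg1 and Nr4a3 have no library values printed in the tag comparison. Only Fos and Nr4a1 are printed in all 4 genotypes. The others are printed for some genotypes, most often one without Nlrp3, where the most members were called. In other comparisons the 6 with the smallest adjusted p are named, and from 2 further lists the 4 with the smallest p. Other members named were chosen after their values were seen. Replicate pairs within groups, 90 in all, differed by a chi-square per degree of freedom of at least 7.0, and no pair agreed within sampling noise. Tested on simulated data for the mean tag comparison over 19460 genes, the fit called 89.6% of genes changed 1.5-fold and 98.5% of those changed 2-fold, with 5 false calls. The simulated counts had the same mean in every group apart from the changed genes, which were all over 5 CPM. They held no effect of title number, sex, other cell types or outlying libraries, so these shares need not hold for the real libraries. Alternatives were DESeq2 1.42.0, no filter, no title number, the first title number, sex, each second title number alone, libraries of at least 10000000 counts, and each library left out.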

Additional observations from a re-analysis of the deposited data

Results flagged for a closer look

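Over 22 measures, 220 groups of 4 or more libraries were searched for 1 library far from the others of its group, and 16 were found. Chance marks about 1 in 20 groups. The mean log2 deviation of the members was lowest in APPPS1_12m_Mxo4 replicate 57, at -0.0914. In the same group, replicate 56, whose Cst7 level was that of WT, stood above the others in Dnajb1 with 541 CPM and in Hsp90aa1 with 1580 CPM.

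Further libraries stood high. APPPS1_NLRP3_12m replicate 49 had 130 CPM of Fosb, and APPPS1_12m replicate 36 had 41.6 CPM of Nr4a3. At 4 months, WT replicate 4 had 3230 CPM of Egr1, NLRP3 replicate 8 had 42.6 CPM of Egr3, APPPS1_NLRP3 replicate 14 had 31.4 CPM of Egr3, and APPPS1_NLRP3 replicate 9 had 2820 CPM of Hspa8. At 6 months, WT replicate 20 had 224 CPM of Klf4 and WT replicate 19 had 48.2 CPM of Dusp2. WT_4m replicate 7 had 747 CPM of Dusp6. Others stood low: NLRP3_4m replicate 8 had 527 CPM of Dusp6, NLRP3_6m replicate 27 had 5.09 CPM of Nr4a2, and NLRP3_12m replicate 47 had 411 CPM of Nr4a1 and 36.6 CPM of Dusp2.

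The tag difference of Nr4a1 differed between genotypes without and with Nlrp3 by 1.14 ± 0.27 (edgeR adjusted p = 0.0364).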

How the results depend on the processing

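No paired analysis was possible because no replicate number is shared between groups. All values here are numbers of the 36 members called. The mean tag comparison (21) gave 22 with DESeq2, 21 without a filter, 20 without the second title number, 20 with a term for the first title number, 21 with a term for sex, 20 with libraries of at least 10000000 counts and 15 with second title number 2 alone. The tag comparison of NLRP3 (16) gave 0 with either second title number alone, and that of APPPS1_NLRP3 (16) gave 10 with the first title number and 10 with second number 2. The tag comparison of APPPS1 (5) gave 2 with the first title number, 0 with sex, 0 and 9 with second number 1 and 2, and 2 with deeper libraries only.

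APPPS1 minus WT at 6 months (11) gave 2 with the first title number and 0 with either second number, and at 12 months (6) it gave 3 and, with second number 1, 1. In the tagged sets (3) it gave 1 with the first title number and 0 with second number 2. APPPS1_NLRP3 minus NLRP3 gave 3 at 6 months (5) with second number 1. At 12 months (3) it gave 5 with DESeq2, 0 with either second number and 1 with deeper libraries. In the tagged sets (1) it gave 0 without the second number, with the first or with sex, and with second number 2 it gave 1 lower in place of the 1 higher. Nlrp3 loss at 4 months (1) gave 2 with DESeq2 and with deeper libraries, and 0 with the first title number or either second number. At 6 months (1) it gave 0 without the second number, with sex or with either second number. At 12 months (13) it gave 6 with the first title number, 7 with sex and 1 with either second number. In the tagged sets (0) it gave 1 with DESeq2 and 2 with second number 2. From 4 to 6 months without transgenes (1), the first title number or second number 1 gave 0, sex gave 2 and deeper libraries 3. From 6 to 12 months without transgenes (3), second numbers 1 and 2 gave 0 and 1. With transgenes, 4 to 6 months (6) gave 1 and 2 with them, and 6 to 12 months (3) gave 1 with the first title number or deeper libraries and 0 with second number 1. The tag by Nlrp3 interaction (1) gave 3 with DESeq2, without a filter or without the second number, 2 with deeper libraries and 0 with the first title number or sex. The transgene by Nlrp3 interaction at 12 months (0) gave 1 with DESeq2. The cause of these changes was not tested, beyond the fewer samples of the subsets.

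With 1 library left out, the tag counts ranged from 0 to 0 in WT, 10 to 18 in NLRP3, 1 to 8 in APPPS1, 2 to 19 in APPPS1_NLRP3 and 20 to 22 for their mean. APPPS1 minus WT ranged from 0 to 0 at 4 months, 2 to 11 at 6 months, 3 to 6 at 12 months and 1 to 6 in the tagged sets. APPPS1_NLRP3 minus NLRP3 ranged from 0 to 0, 4 to 6, 0 to 3 and 0 to 2. Nlrp3 loss ranged from 0 to 3, 0 to 1, 8 to 16 and 0 to 0. The age differences ranged from 0 to 4 and 0 to 3 without transgenes, and 3 to 13 and 0 to 4 with them. The interactions ranged from 0 to 3 for tag by Nlrp3, 0 to 2 for transgene by Nlrp3 at 12 months, and 0 to 0 for the others.

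Over the 27 comparisons, 116 results of single members were called, not all of them named here. Of 1606 values with 1 library left out, 1321 kept the call, 285 lost it and 0 reversed. Of 889 values under other alternatives, 665 kept it, 223 lost it and 1 reversed: Gadd45b in APPPS1 minus WT of the tagged sets was at -0.02005 with second title number 2, which leaves replicate 56 as its sole APPPS1 library. Members of low level, such as Nr4a2, Egr3 and Maff, rest on fewer reads per library than Fos.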
